A study of Mus musculus with 30 samples.

Results

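The liver stores fatty acids as triglyceride, and 10 mouse genes of that route were followed here: *Pparg*, *Cd36*, *Mogat1*, *Mogat2*, *Dgat1*, *Dgat2*, *Gpam*, *Agpat2*, *Lpin1* and *Lpin2*. They were taken by name, as 10 of the 54429 genes listed by symbol in a time course and, by Ensembl identifier, as 10 of the 55471 genes in a genotype experiment. The livers came from male C57BL/6J mice on chow under a light/dark cycle, and poly(A) RNA was sequenced. In the time course, wild-type mice aged 2, 6 or 12 months were sampled at zeitgeber time (ZT, hours after lights on) 1, 5, 9, 13, 17 and 21, giving 18 libraries, 1 for every age and hour. In the genotype experiment, mice with a liver-specific deletion of *Egr-1* (KO), made by crossing floxed *Egr-1* mice with *Alb*-Cre mice, were compared with littermates (WT) at the same 3 ages. Each age was taken at the time of the highest (H) and of the lowest (L) Egr-1 protein, which was ZT13 and ZT17 at 2 months, ZT9 and ZT21 at 6 months, and ZT5 and ZT21 at 12 months. There was again 1 library for each age, time and genotype, giving 12 libraries in 6 WT and KO pairs. *Alb*-Cre acts in hepatocytes, so other liver cells keep the gene, and the KO line came from another strain and was backcrossed to C57BL/6J. How many mice went into each library is not given here, since the study's legends state animals per group but not how they map to libraries, so the p-values below measure only the spread between these libraries.

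Triglyceride is built on glycerol-3-phosphate. Glycerol-3-phosphate acyltransferase, the product of *Gpam*, adds the first fatty acid and AGPAT2 the next, lipins 1 and 2 (*Lpin1*, *Lpin2*) remove the phosphate to give diacylglycerol, and DGAT1 or DGAT2 adds the last fatty acid. The monoacylglycerol acyltransferases MOGAT1 and MOGAT2 reach diacylglycerol by another route, which is best known from the intestine. CD36 takes up fatty acids at the plasma membrane, and PPARγ (*Pparg*) is the nuclear receptor that directs fat storage in adipocytes and is also known to drive *Cd36*, *Mogat1* and the lipid droplet gene *Cidec* in fatty liver.

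By length-corrected level, *Dgat2* and *Agpat2* stood far above the other genes, and the receptor and the monoacylglycerol enzymes were at the lower end. In FPKM, which divides counts by exon length and library size, the medians over the 18 time-course libraries were 114.5 for *Dgat2* (range 77.4 to 165.0), 100.1 for *Agpat2* (52.6 to 130.6), 15.9 for *Gpam* (7.0 to 43.7) and 13.2 for *Cd36* (9.79 to 24.1). They were 8.84 for *Lpin2* (3.87 to 23.8), 4.68 for *Dgat1* (3.18 to 6.68), 3.75 for *Lpin1* (1.16 to 52.0) and 3.46 for *Pparg* (1.14 to 7.58). *Mogat1*, at a median of 0.452 (0.140 to 0.851), and *Mogat2*, at 0.126 (0 to 0.238), were close to the limit of detection. Every neighbour in this order overlapped the next in range except for *Agpat2* and *Gpam* and for *Pparg* and *Mogat1*. The 12 genotype-experiment libraries gave the same first 5 genes in the same order, from *Dgat2* at a median of 188.1 FPKM to *Lpin2* at 13.6, and *Mogat1* (1.21) and *Mogat2* (0.198) were again the last.

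The genes lie on 9 chromosomes (GRCm38, GENCODE M21 annotation). *Pparg* (ENSMUSG00000000440) is on chromosome 6 from 115360951 to 115490399, *Cd36* (ENSMUSG00000002944) on chromosome 5 from 17781690 to 17888801, and *Gpam* (ENSMUSG00000024978) on chromosome 19 from 55067268 to 55127238. *Mogat1* (ENSMUSG00000012187) is on chromosome 1 from 78510991 to 78538173, *Lpin1* (ENSMUSG00000020593) on chromosome 12 from 16535669 to 16610966, and *Lpin2* (ENSMUSG00000024052) on chromosome 17 from 71182560 to 71249817. *Dgat2* (ENSMUSG00000030747, 99153658 to 99182719) and *Mogat2* (ENSMUSG00000052396, 99219084 to 99238619), which belong to 1 acyltransferase family, are both on chromosome 7. *Dgat1* (ENSMUSG00000022555) is on chromosome 15 from 76502015 to 76511953, and *Agpat2* (ENSMUSG00000026922) is on chromosome 2 from 26593057 to 26604417. *Mogat1* shares 200 bases, or 12.8% of its exon length, with *BC035947* on the other strand, *Mogat2* shares 55 (3.0%) with *Gm45012* and *Agpat2* shares 64 (3.0%) with *Egfl7*. The use of strand in counting was not stated, so the reads in those bases cannot be told apart.

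RefSeq promoters (GRCm38.p6) were at hand for 7 of the 10 genes. The 250 bases before the start site are shown for *Lpin1* and *Lpin2*, which peaked together over the day, and for *Cd36* and *Mogat1*, which were both higher at 12 months in the genotype experiment. *Pparg* was also higher there, and its windows are described below but not shown. Each is written 5′ to 3′ on the strand of its gene, and for *Lpin2*, which has 3 RefSeq starts, the first is shown. Capitals mark any match, on either strand, to CACGTG (the E-box of clock factors), TTATGTAA (the D-box), AGGTCA (the core read by many nuclear receptors), GCGNGGGCG (an EGR motif) or TCACNCCAC (a motif like that of sterol regulatory proteins).
Lpin1, chr12:16610967-16611216, minus strand: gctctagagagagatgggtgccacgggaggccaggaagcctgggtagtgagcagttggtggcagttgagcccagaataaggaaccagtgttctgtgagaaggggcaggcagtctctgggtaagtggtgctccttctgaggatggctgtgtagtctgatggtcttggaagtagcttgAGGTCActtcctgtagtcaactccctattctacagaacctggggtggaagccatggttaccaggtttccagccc
Lpin2, chr17:71183282-71183531, plus strand: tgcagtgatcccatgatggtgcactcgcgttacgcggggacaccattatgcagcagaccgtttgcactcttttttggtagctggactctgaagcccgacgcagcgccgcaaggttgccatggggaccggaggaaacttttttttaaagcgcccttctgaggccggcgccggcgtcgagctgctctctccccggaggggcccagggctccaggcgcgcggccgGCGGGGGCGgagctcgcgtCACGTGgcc
Cd36, chr5:17835897-17836146, minus strand: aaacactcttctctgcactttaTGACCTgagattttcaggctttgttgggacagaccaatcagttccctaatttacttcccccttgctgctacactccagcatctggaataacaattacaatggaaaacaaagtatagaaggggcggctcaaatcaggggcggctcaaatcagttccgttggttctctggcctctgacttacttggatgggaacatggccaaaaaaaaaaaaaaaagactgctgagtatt
Mogat1, chr1:78510810-78511059, plus strand: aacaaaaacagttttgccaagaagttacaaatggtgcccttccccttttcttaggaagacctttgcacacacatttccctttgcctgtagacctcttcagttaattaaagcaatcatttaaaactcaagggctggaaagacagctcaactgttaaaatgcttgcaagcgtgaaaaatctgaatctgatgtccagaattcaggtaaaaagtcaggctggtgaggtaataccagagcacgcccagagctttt
The *Lpin1* window held AGGTCA from 74 bases before the start. In the *Lpin2* window CACGTG began 9 bases and GCGNGGGCG 28 bases before it, and in the *Cd36* window AGGTCA stood 228 bases before it on the opposite strand. That *Cd36* window belongs to a start inside the gene span given above, whose outer end on the minus strand is at 17888801. The window of another *Lpin2* start held GCGNGGGCG from 129 bases before it, and the *Mogat1* window held none of the 5. Among the windows not shown, those of *Pparg* held AGGTCA from 28 and from 9 bases before their starts. A *Gpam* window held it from 196 bases before the start. Another window of each of these genes, and the *Agpat2* window, held none of the 5. Among all 32851 RefSeq promoter windows of this length, 6.02% held CACGTG, 0.819% TTATGTAA, 14.0% AGGTCA, 4.7% GCGNGGGCG and 1.05% TCACNCCAC. A match is a run of letters and was not tested as a binding site.

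Total counts per library were 13375377 to 16557378 in the time course and 13747706 to 21748956 in the genotype experiment, where the H libraries (18764485 to 21748956) were all deeper than the L libraries (13747706 to 16633981). Levels are given as CPM, counts scaled to the library size after TMM normalization. In the time course all 6 libraries of 6 months had *Saa1*, an acute-phase gene named after its values were seen, at 5246 to 22660 CPM, against 80.3 to 329.9 at 2 months and 24.9 to 1541 at 12 months. In the genotype experiment, *Egr1* was lower in KO at 6 months H (72.4 CPM in WT and 5.54 in KO), at 6 months L (24.9 and 4.92) and at 12 months L (54.8 and 1.53). It was low in both libraries at 2 months H (2.57 and 1.99), and the KO label did not go with less *Egr1* at 12 months H (5.83 in WT and 6.11 in KO) or at 2 months L (1.45 and 7.43). KO below therefore means a library labelled KO. The sum of 8 hepatocyte markers was lower in KO in 6 of 6 pairs (41130 to 59390 CPM against 68670 to 87060 in WT), and clock genes differed within pairs, with *Arntl* at 31.7 in WT and 14.3 in KO at 6 months L. In whole liver, fewer cells of a type and less RNA per cell cannot be told apart.

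The lipins followed the day most strongly. *Lpin1* at 2 months was at 15.8, 24.1, 67.3, 483.6, 80.5 and 23.3 CPM from ZT1 to ZT21. At 6 months it was at 31.1, 17.6, 30.5, 77.9, 32.9 and 11.6, and at 12 months at 13.3, 47.2, 61.3, 173.8, 66.9 and 40.2. The highest library was ZT13, just after lights off, at every age, and it stood above every other library of that age by more than their whole range. A 24-h cosine curve shared by the 3 ages had its peak at ZT12.9 and a fitted peak-to-trough fold of 8.18 (edgeR adjusted p = 0.000650), and without ZT13 the fold was 3.75 (adjusted p = 0.0244). *Lpin2* was highest at ZT13 at each age as well, at 218.3, 130.9 and 263.0 CPM, against lowest values of 60.5, 48.4 and 74.5. Its shared curve peaked at ZT12.6 with a fold of 2.76 (adjusted p = 0.000102).

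*Pparg* also climbed over the light phase, from ZT1 to ZT9, at every age, and its highest library was in the dark at 2 and 6 months. In 2-month-old mice it went from 4.37 CPM at ZT1 to 9.71 at ZT13. It went in 6-month-old mice from 5.14 at ZT1 to 13.7 at ZT17 and in 12-month-old mice from 11.1 at ZT1 to 24 at ZT9. The lowest library was ZT1 or ZT21, the ends of the series, at all ages. Its shared curve peaked at ZT11.9 with a fold of 2.22 (adjusted p = 0.000492). *Agpat2* ran the other way, being lowest at ZT9 at every age (116.0, 139.0 and 154.8 CPM), and highest at ZT17 at 2 months (271.1) and at ZT21 at 6 (260.6) and 12 months (248.2). The fit placed its peak at ZT21.3 with a fold of 1.72 (adjusted p = 0.00193, and 0.0517 without ZT9). The fitted peaks of the enzyme that makes phosphatidic acid and of the lipins that use it thus lay apart, and the difference between them was not tested. *Dgat2* had a shallow curve with its peak at ZT14.7 and a fold of 1.32 (adjusted p = 0.0434), and this call was lost when ZT1, ZT5, ZT13, ZT17 or ZT21 was left out (adjusted p = 0.0703 to 0.229).

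**Figure D1:**
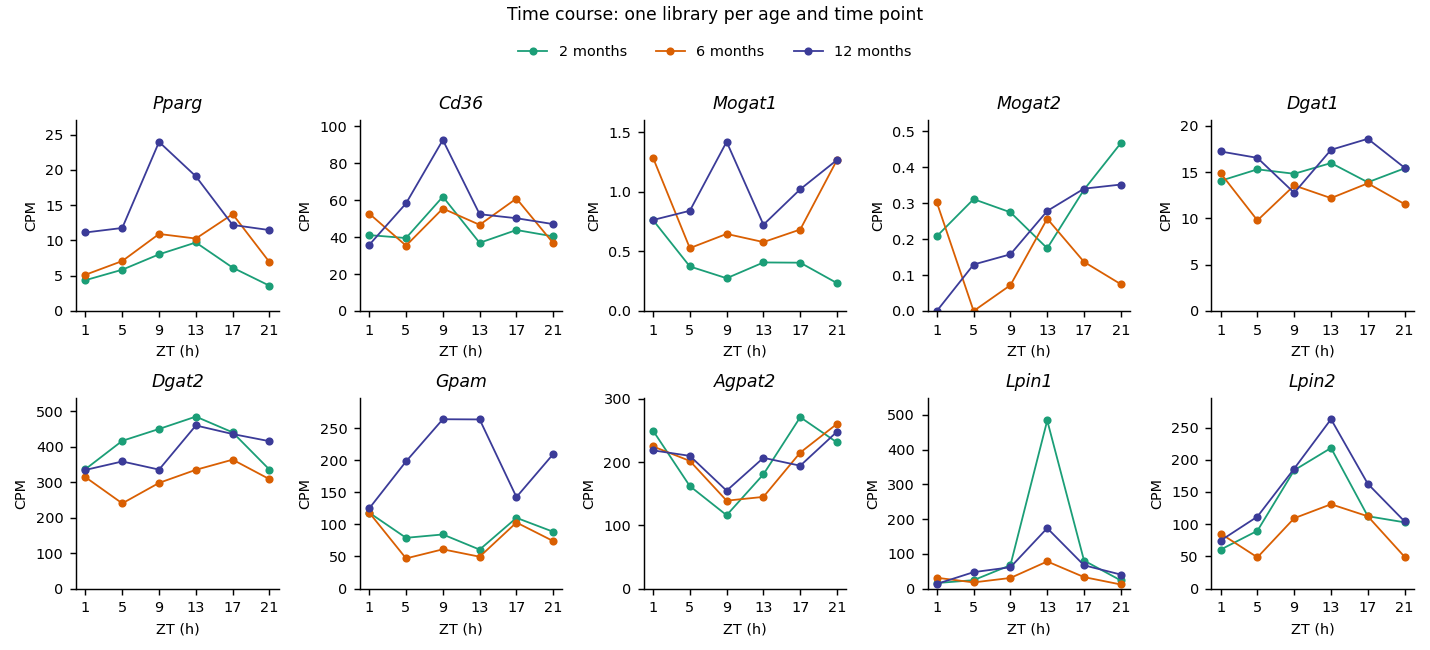
CPM (y axis) of the 10 genes against zeitgeber time in hours (x axis) in the time course, with 1 point per library and a line per age. *Lpin1* and *Lpin2* are highest at ZT13 at all 3 ages, *Agpat2* is lowest at ZT9, and the 12-month line of *Gpam* lies above both others from 125.0 to 264.1 CPM.

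Over the 3 ages, 5 of the 9 genes tested passed for a 24-h curve, against 15.8% of all genes tested. *Mogat2*, with 0 to 6 counts per library, did not reach the count filter. The genes that did not pass were *Cd36* (fold 1.41, adjusted p = 0.165), *Mogat1* (1.5, adjusted p = 0.478), *Dgat1* (1.09, adjusted p = 0.735) and *Gpam* (1.19, adjusted p = 0.777). At 2 months 4 of 9 passed, against 4.72% of all genes: *Lpin1* with a fold of 25.7 (adjusted p = 0.00111), *Agpat2* with 2.14 (0.0184), *Lpin2* with 3.10 (0.0211) and *Pparg* with 2.50 (0.0339). Leaving out a time point took out its libraries of all 3 ages in these fits. The adjusted p then also rested on fewer libraries of the other ages. The *Lpin1* curve rested in part on ZT13, without which the fold was 8.38 and the adjusted p 0.0514. The other 3 were lost without ZT9 (adjusted p = 0.0511 to 0.181) or without ZT13 (0.0553 to 0.225), *Pparg* and *Agpat2* also without ZT17 (0.0596 and 0.107), and *Pparg* also without ZT1 (0.102) or ZT21 (0.184).

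At 6 months 1 of 9 passed, against 4.62% of all genes. This was *Pparg*, with a fold of 2.37 and a peak at ZT13.6 (adjusted p = 0.0439), and it was lost without any time point but ZT13 (adjusted p = 0.0538 to 0.258). *Lpin1* had a fitted fold of 3.0 (adjusted p = 0.298) and *Lpin2* of 2.14 (0.127). Without ZT1 both passed, with folds of 8.06 (adjusted p = 0.0436) and 4.17 (0.00406), and without ZT13 the fold of *Lpin1* was 1.55 (0.854). At 12 months 1 of 9 passed, against 3.53%: *Lpin2*, with a fold of 3.25 and a peak at ZT12.6 (adjusted p = 0.0225), which was lost without ZT9, ZT13 or ZT17 (0.0534 to 0.205). *Lpin1* had a fold of 6.94 (adjusted p = 0.0650, and 4.62 with 0.209 without ZT13) and *Pparg* of 2.15 (0.0508). By an exact rank permutation test modelled on JTK_cycle, which ranks the 6 values of an age against cosine curves and cannot go below p = 0.0333, this smallest p was reached by *Lpin1* and *Lpin2* at 2 and 12 months and by *Agpat2* at 6 months. That p is not adjusted, and it was reached by 8.66%, 8.18% and 6.43% of genes at 2, 6 and 12 months.

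A change of the curve with age was not detected. Between 6 and 2 months 0 of 9 genes passed edgeR's test of the difference between curves, against 0.23% of all genes. The fitted fold of *Lpin1* was 25.7 at 2 months and 3.0 at 6 months, and the difference had an adjusted p of 0.252. Both folds depended on single time points, being 8.38 at 2 months without ZT13 and 1.55 to 8.06 at 6 months without ZT13 or ZT1. Between 12 and 2 months 0 of 9 genes passed, against 0.0% of all genes, although 623 of the 14001 genes were under an unadjusted p of 0.05. At that unadjusted level 1 member stood in each comparison, *Lpin1* at 6 and *Gpam* at 12 months, against 11.3% and 4.45% of all genes. DESeq2 called 0 of the 10 genes in both comparisons and 266 and 22 of all genes.

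With age, 3 genes of different steps rose in the time course between 2 and 12 months. *Pparg* was at 3.58 to 9.71 CPM at 2 months (median 6.00) and at 11.1 to 24 at 12 months (median 12.0). *Gpam*, which starts the pathway, was at 60.7 to 118.3 (median 86.4) and at 125.0 to 264.1 (median 204.1). No library of 12 months overlapped those of 2 months for these 2 genes, a separation that 2.15% of all genes showed. The fold was 2.39 for *Pparg* (log2 fold change 1.25, SE 0.12, 95% interval of the fold 1.99 to 2.86, adjusted p = 3.09e-05) and 2.20 for *Gpam* (log2 1.14, SE 0.22, 1.59 to 3.06, adjusted p = 0.00470). Both were higher at 12 months at 6 of 6 time points and kept the call under each alternative that was run.

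*Mogat1* was the third, at 0.234 to 0.763 CPM (3 to 11 counts) at 2 months and 0.724 to 1.42 CPM (12 to 18 counts) at 12 months. Its fold was 2.40 (log2 1.27, SE 0.37, interval 1.37 to 4.22, adjusted p = 0.0396), and the groups touched only through ZT1 at 2 months, at 0.763 CPM. At this depth the counting error alone is wide, from 0.0482 to 0.683 CPM for the lowest library, and the call was lost when any time point but ZT1 was left out (adjusted p = 0.0639 to 0.113) and by DESeq2 (adjusted p = 0.0505). In all 3 of 9 genes passed between 12 and 2 months, against 14.5% of all genes, and all 3 were higher, against 7.67% of all genes called higher.

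The remaining members did not pass the test. *Cd36* was at 36.9 to 61.9 CPM at 2 months (median 40.8) and 35.8 to 92.6 at 12 months (median 51.3), with a fold of 1.25 (interval 1.07 to 1.46, adjusted p = 0.0538). The 12-month value at ZT9, 92.6 CPM, was the highest of all 18 libraries, and the groups overlapped. Without ZT1 the adjusted p was 0.0149. *Lpin2* had a fold of 1.19 (1.04 to 1.36, adjusted p = 0.0795), *Dgat1* of 1.10 (0.952 to 1.26), *Agpat2* of 1.05 (0.884 to 1.26), *Dgat2* of 0.956 (0.828 to 1.10) and *Lpin1* of 0.953 (0.662 to 1.37). The intervals of these last 4 all include 1. The median log2 fold change of the 9 genes was 0.25, and that of all genes -0.00080.

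Between 2 and 6 months the only call was in the other direction. *Dgat2*, which adds the last fatty acid, was at 335.7 to 485.3 CPM at 2 months (median 428.9) and at 240.4 to 363.8 at 6 months (median 311.5), and it was lower at 6 of 6 time points. Its fold was 0.748 (log2 -0.42, SE 0.11, interval 0.635 to 0.882, adjusted p = 0.0306), and it was lost without ZT5, ZT9, ZT13 or ZT17 (adjusted p = 0.0533 to 0.102) and without ZT as a block (0.0542). This was 1 of 9 genes, against 11.5% of all genes, with 6.01% of all genes called lower. *Pparg* was already higher at 6 of 6 time points (fold 1.42, adjusted p = 0.0630), as was *Mogat1* (1.95, adjusted p = 0.112). *Gpam* (0.80, adjusted p = 0.0600), *Lpin1* (0.506, 0.0921) and *Lpin2* (0.703, 0.0998) were lower at 5 of 6, and without ZT1 the adjusted p was 0.0175 for *Lpin1* and 0.0226 for *Lpin2*. Without ZT as a block the fold of *Lpin1* was 0.289 (adjusted p = 0.175). The 6-month libraries were those with *Saa1* at 5246 CPM or more, and its part in these differences was not tested.

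From 6 to 12 months, 3 of 9 genes passed, against 10.2% of all genes, and all were higher, against 5.24% called higher. *Gpam*, at 47.0 to 118.4 CPM at 6 months (median 67.6), did not overlap its 12-month libraries, which lay above as for 2.04% of all genes, and had a fold of 2.77 (interval 1.79 to 4.29, adjusted p = 0.00965). *Lpin2* went from 48.4 to 130.9 CPM (median 97.3) to 74.5 to 263.0 (median 137.2), a fold of 1.69 (1.32 to 2.17, adjusted p = 0.0155). *Pparg*, at 5.14 to 13.7 CPM at 6 months, had a fold of 1.68 (1.32 to 2.16, adjusted p = 0.0156). The calls of *Pparg* and *Lpin2* were lost without the ZT block (0.0769 and 0.126) or without ZT9 (0.0672 and 0.0577), and that of *Lpin2* also without ZT21 (0.0547). These 3 comparisons share libraries, since each age enters 2 of them, so they do not bear on each other as separate evidence. The medians of *Gpam* were 86.4, 67.6 and 204.1 CPM at 2, 6 and 12 months, while those of *Pparg* were 6.00, 8.68 and 12.0. The 6-month libraries are again those with high *Saa1*, and its part in the differences between 6 and 12 months was not tested.

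**Figure D2:**
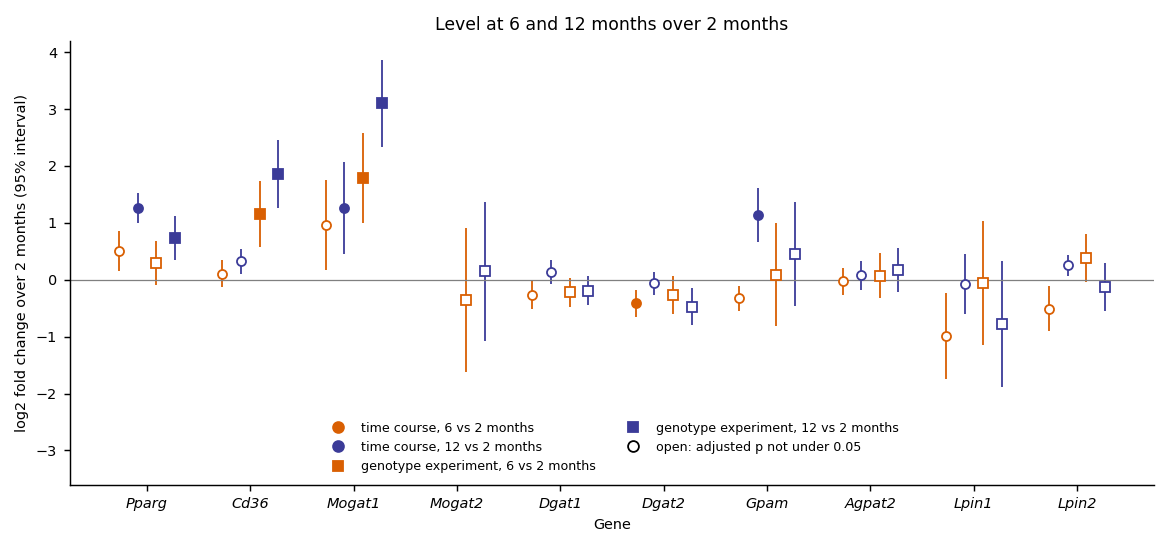
Log2 fold change over 2 months (y axis, with 95% intervals) of each gene (x axis) at 6 and 12 months in the time course (circles) and the genotype experiment (squares). Filled symbols have an edgeR adjusted p under 0.05, and *Pparg* and *Mogat1* are filled at 12 months in both experiments. *Mogat2* was not tested in the time course.

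The genotype experiment gave the same ages in other libraries, with H at another hour for each age and L at ZT17 at 2 months but ZT21 at 6 and 12 months, so there the difference of either age from 2 months and the time of day cannot be told apart. *Cd36* in the 4 libraries of 2 months was at 34.0 (WT H), 36.5 (KO H), 28.2 (WT L) and 54.8 (KO L) CPM. At 6 months it was at 75.9, 73.3, 48.2 and 147.9 in the same order, and at 12 months at 159.1, 140.6, 97.1 and 138.0. Every 12-month library lay above every 2-month library, with a fold of 3.62 (log2 1.86, SE 0.27, interval 2.40 to 5.46, adjusted p = 0.00200). The fits of age in this experiment had no pair term, so WT and KO of 1 age and hour counted as separate libraries. Their SE, interval and p do not allow for what the libraries of a pair share, and may overstate the precision. *Mogat1* had 11, 17, 9 and 10 counts at 2 months, 24, 56, 18 and 85 at 6 months, and 113, 142, 53 and 103 at 12 months. In CPM this was 0.566 to 0.825 at 2 months and 3.36 to 6.94 at 12 months, again with no overlap, and the fold was 8.57 (log2 3.10, SE 0.35, interval 5.03 to 14.6, adjusted p = 0.000577).

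*Pparg* was at 9.93, 15.4, 13.8 and 19.6 CPM at 2 months and at 23.2, 23.9, 20.2 and 27.7 at 12 months, with a fold of 1.66 (interval 1.27 to 2.17, adjusted p = 0.0210). The receptor, the fatty acid transporter and the monoacylglycerol enzyme were thus all higher at 12 months without overlap, a separation that 7.91% of all genes showed. They were 3 of 10 genes called, against 11.7% of all genes, with 5.15% of all genes called higher. The *Pparg* call was lost without the 2-month H pair (adjusted p = 0.307), the 12-month H pair (0.146) or the 12-month L pair (0.0920), and the *Cd36* call without the 2-month H pair (0.0721). With the WT libraries alone, a choice made after the data were seen, *Cd36* had a log2 fold change of 2.02 (adjusted p = 0.0284), *Mogat1* of 2.89 (0.0837) and *Pparg* of 0.88 (0.358). With the KO libraries alone the values were 1.71 (0.0732), 3.24 (0.0659) and 0.61 (0.185).

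*Gpam* did not pass the test in these libraries. It was at 242.7, 219.7, 360.7 and 246.5 CPM at 2 months and at 482.5, 472.4, 277.1 and 200.3 at 12 months, with a fold of 1.37 (interval 0.728 to 2.58, adjusted p = 0.547), which was 0.732 without the 12-month H pair and 2.25 without the 12-month L pair. Within each genotype, the H library was higher and the L library lower at 12 months. The 2-month level was also above that of the 2-month time-course libraries, in which *Gpam* reached 118.3 CPM, although the 2 tables were scaled separately. *Dgat2* had a fold of 0.721 (0.573 to 0.907, adjusted p = 0.0675), and that of *Lpin1* was 0.584 (0.270 to 1.26). For every gene here, the 12 and 2-month libraries were taken at different hours.

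Between 6 and 2 months in the genotype experiment 2 of 10 genes passed, against 2.61% of all genes, and both were higher, against 1.37% called higher. *Cd36* had a fold of 2.23 (interval 1.49 to 3.34, adjusted p = 0.0444) and *Mogat1* of 3.45 (1.99 to 5.96, adjusted p = 0.0319). The 6-month libraries of *Mogat1*, at 1.12 to 4.98 CPM, were all above those of 2 months, as 5.41% of all genes were. Both calls were lost without the 2-month H, 2-month L or 6-month L pair (adjusted p = 0.0765 to 0.353), and that of *Cd36* also without the 6-month H pair (0.0965). Neither gene passed with the WT libraries alone, at log2 fold changes of 0.95 for *Cd36* (adjusted p = 0.267) and 1.02 for *Mogat1* (0.631), or with the KO libraries alone, at 1.26 (0.394) and 2.29 (0.386).

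Markers of other cells were set beside these genes, since adipocytes, macrophages and endothelial cells are known to carry *Cd36* and adipocytes *Pparg*. The defining adipocyte genes were near 0 in all 30 libraries, with *Adipoq* at 1.44 CPM or less, *Plin1* at 0.342 or less and *Lep* at 0.137 or less. The sum of the 9 adipocyte markers, nearly all of it from *Car3* and *Pck1*, which hepatocytes also express, was 3086 to 4092 CPM at 2 months and 2956 to 4399 at 12 months in the time course, and 4736 to 6441 and 5791 to 7717 in the genotype experiment. The sum of the 9 Kupffer cell markers was 566.5 to 624.0 CPM at 2 months and 447.6 to 698.4 at 12 months in the time course, and 603.5 to 849.7 and 512.2 to 667.2 in the genotype experiment. That of the 8 endothelial markers was 226.8 to 327.4 and 202.5 to 335.4, and 246.5 to 275.0 and 177.8 to 228.5. In the genotype experiment the endothelial sum was thus lower at 12 months without overlap. The sum of the 7 stellate cell markers was 373.1 to 442.0 and 398.5 to 564.3 CPM in the time course, and 310.5 to 446.4 and 295.6 to 541.0 in the genotype experiment. The lymphocyte sum was higher at 12 months without overlap in both experiments, at 20.7 to 27.3 CPM at 2 months and 49.0 to 290.9 at 12 months in the time course, and at 23.1 to 43.8 and 96.3 to 168.0 in the genotype experiment. The part of these cells in the age differences was not tested.

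Between the libraries labelled KO and WT, none of the 10 genes passed the threshold. Over the 6 pairs, edgeR called 0 of 10, against 1.36% of all genes, and DESeq2 also called 0. Under an unadjusted edgeR p of 0.05 were 3 members (*Pparg*, *Cd36* and *Mogat1*), and 15.3% of all genes. *Mogat1* was higher in KO in 6 of 6 pairs, as were 5.33% of genes averaging 1 CPM or more. The summed markers of lymphocytes (23.1 to 102.4 CPM in WT and 28.9 to 168.0 in KO) and of stellate cells (295.6 to 497.9 and 355.1 to 541.0) were also higher in KO in 6 of 6 pairs, and those of Kupffer cells (512.2 to 664.9 and 575.0 to 849.7) in 5 of 6. Their part in the values of *Mogat1* and *Pparg* was not tested. The values of *Mogat1* in WT and KO were 0.566 and 0.825 CPM at 2 months H, 0.620 and 0.641 at 2 months L, 1.30 and 2.50 at 6 months H, 1.12 and 4.98 at 6 months L, 5.49 and 6.94 at 12 months H, and 3.36 and 6.85 at 12 months L. The genotypes overlapped, and the fold within pairs was 1.86 (log2 0.89, SE 0.25, interval 1.25 to 2.74, adjusted p = 0.128).

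*Pparg* was higher in KO in 5 of 6 pairs, as 12.8% of genes were. The exception was 6 months H, at 20.2 CPM in WT and 19.9 in KO, and at 12 months H the pair was nearly equal (23.2 and 23.9). The fold was 1.28 (log2 0.36, SE 0.10, interval 1.09 to 1.51, adjusted p = 0.136). Without any filter on low counts, *Mogat1* (adjusted p = 0.0194) and *Pparg* (0.0414) both passed. Leaving out the pairs of 12 months H and 2 months L, where *Egr1* was not lower in KO, a choice made after the data were seen, gave log2 fold changes of 1.20 (adjusted p = 0.194) for *Mogat1* and 0.42 (0.312) for *Pparg*.

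**Figure D3:**
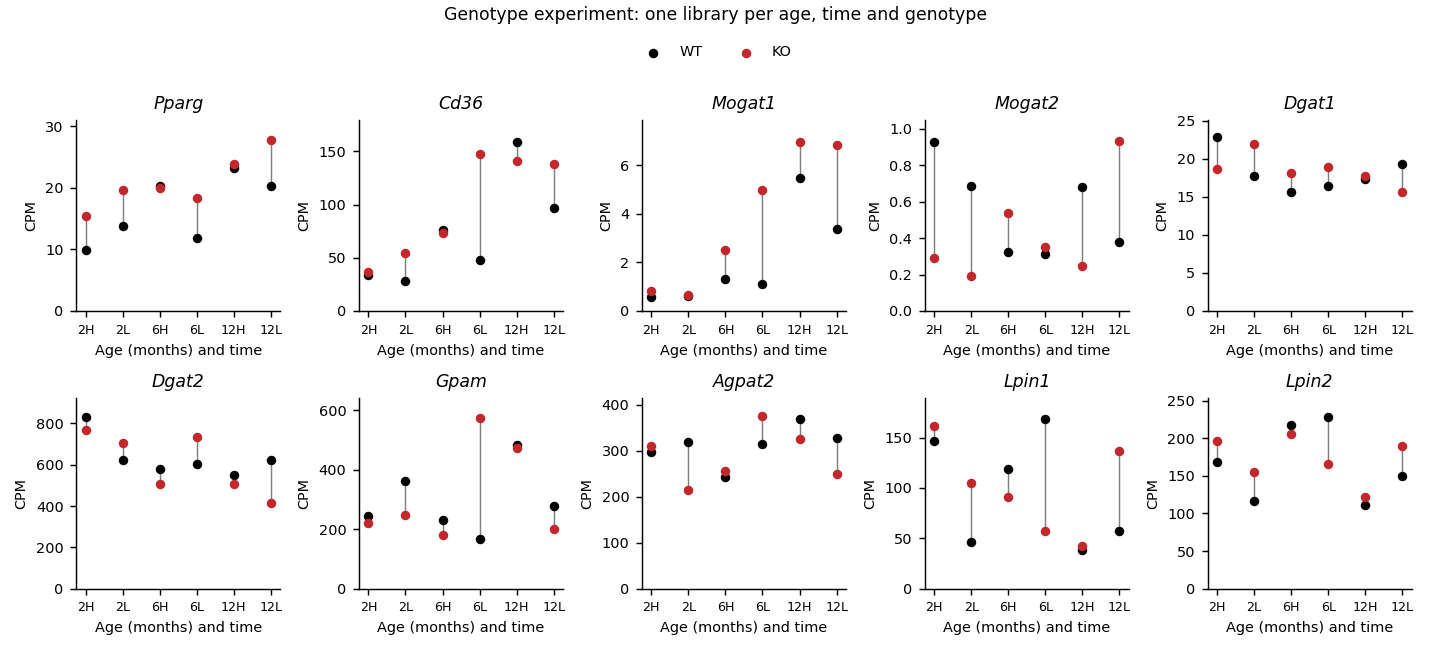
CPM (y axis) of the 10 genes in each of the 12 libraries of the genotype experiment, with WT and KO of a pair joined and the pairs along the x axis by age in months and time (H or L). *Mogat1* is higher in KO in all 6 pairs, from 0.641 against 0.620 at 2 months L to 4.98 against 1.12 at 6 months L.

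For *Cd36* the pairs split by time of collection, and how many of all genes show such a split was not counted. At H the WT and KO values were 34.0 and 36.5 CPM at 2 months, 75.9 and 73.3 at 6 months, and 159.1 and 140.6 at 12 months, so KO was within a ratio of 0.883 to 1.07 of WT. At L they were 28.2 and 54.8, 48.2 and 147.9, and 97.1 and 138.0, ratios of 1.95, 3.07 and 1.42. Over the 6 pairs the fold was 1.39 (interval 1.01 to 1.92, adjusted p = 0.316). The difference between the effect at H and at L was -1.07 on the log2 scale (SE 0.25), with an edgeR adjusted p of 0.631 over all genes and a DESeq2 adjusted p of 0.0229. In edgeR 0 of 10 genes passed for this difference, against 0.00674% of all genes. *Cd36* was the 1 member under an unadjusted p of 0.05, as 5.07% of all genes were. Over the alternatives run, 0 to 117 of all genes were called for this difference. H and L also differed in depth, with every H library above every L library, and in clock phase within pairs, with *Dbp* at 24.4 CPM in WT and 73.5 in KO at 2 months L. The part of either in the *Cd36* values was not tested.

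The enzymes of the main route showed no common direction. *Gpam* was lower in KO in 5 of 6 pairs, but at 6 months L it was at 167.0 CPM in WT and 573.1 in KO, and the fold over the pairs was 1.00 (interval 0.669 to 1.5). *Lpin1* went from 168.7 to 57.6 CPM in that same pair, from 57.6 to 136.4 at 12 months L and from 46.1 to 104.5 at 2 months L, so its fold of 1.09 had an interval of 0.678 to 1.76. In the 6-month L pair *Arntl* was at 31.7 and 14.3 CPM, and its part in these values was not tested. *Dgat1* (fold 1.02, interval 0.873 to 1.18), *Dgat2* (0.935, 0.796 to 1.10), *Agpat2* (0.913, 0.772 to 1.08) and *Lpin2* (1.06, 0.903 to 1.25) all had intervals that include 1 and lie between 0.772 and 1.25. *Mogat2*, at 3 to 18 counts per library, was higher in KO in 3 of 6 pairs (fold 0.739, interval 0.342 to 1.59).

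**Figure D4:**
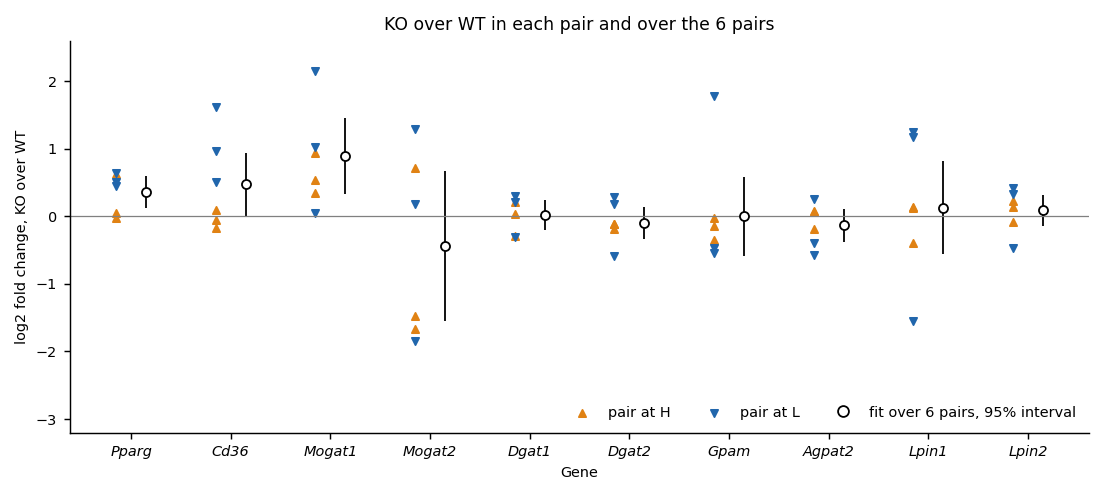
Log2 fold change of KO over WT (y axis) for each gene (x axis) in the 3 pairs at H, the 3 pairs at L and, with its 95% interval, over the 6 pairs. For *Cd36* the 3 pairs at L lie above the 3 at H, and no gene has an adjusted p under 0.05 over the pairs.

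Within single ages edgeR again called 0 of 10 genes. At 2 months the background was 0.0% of all genes (970 of 14843 under an unadjusted p of 0.05, and 29 called by DESeq2). It was 0.0337% at 6 months (1157, or 7.79%, under an unadjusted p of 0.05). At 12 months it was 0.0% (1063 under an unadjusted p of 0.05, and 15 called by DESeq2). At 6 months the fold of *Mogat1* was 2.90 (interval 1.56 to 5.41, adjusted p = 0.408, and 1.91 to 4.45 without 1 of the 2 pairs) and that of *Lpin1* 0.511 (0.289 to 0.904, adjusted p = 0.572), and these were the 2 members under an unadjusted p of 0.05. At 2 months *Pparg* was the only such member (fold 1.47, 1.09 to 1.99, adjusted p = 0.674), and at 12 months there was none. A difference of the genotype effect between ages passed for 0 of 10 genes, against 0.0135% of all genes. *Lpin1* and *Lpin2* were under an unadjusted p of 0.05, as 3.22% of all genes were, and each had an adjusted p of 1. DESeq2 called 0 of the 10 in each of these 4 tests.

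Around these 10 genes, 70 others of the pathway in 6 lists were read in the same fits, 65 of which passed the count filter. Between 12 and 2 months in the time course 9 of the 65 were higher and 7 lower, against the 14.5% of all genes called. Of the 4 genes of lipid droplet assembly, 2 were called. *Cidec*, which fuses droplets, was at 0.832 to 3.43 CPM at 2 months and 4.77 to 19.4 at 12 months (log2 2.30, SE 0.22, adjusted p = 3.32e-05). *Fitm1*, which helps form droplets, was at 16 to 25.6 and 66.8 to 109.6 CPM (log2 1.88, SE 0.09, adjusted p = 1.22e-07). Neither gene's 12-month libraries overlapped those of 2 months, and 2.15% of all genes lay wholly higher at 12 months in this way.

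The same 2 droplet genes were called in the genotype experiment. *Cidec* was at 4.75 to 6.36 CPM at 2 months, 12.1 to 47.0 at 6 months and 52.2 to 79.6 at 12 months, and its log2 fold change was 3.59 (adjusted p = 0.000119) at 12 and 2.14 (0.00687) at 6 months. *Fitm1* was at 61.4 to 110.1, 115.4 to 254.5 and 239.1 to 274.9 CPM, with log2 fold changes of 1.66 (adjusted p = 0.000400) and 1.08 (0.0122). For both genes the 12-month libraries lay wholly above those of 2 months, as for 7.91% of all genes. The 6-month libraries did so too, as for 5.41% of all genes. In that experiment 5 of the 65 genes were higher and 7 lower at 12 months, against 11.7% of all genes called, and 3 were higher and 0 lower at 6 months, against 2.61%.

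Of the 18 genes tested for fatty acid uptake and activation, 2 were higher and 4 lower at 12 months in the time course, against 14.5% of all genes called. In the genotype experiment they were likewise 2 and 4, against 11.7% of all genes called. *Slc27a2*, a fatty acid transporter and very-long-chain acyl-CoA synthetase, was lower in both (log2 -0.50, adjusted p = 0.0110, and -0.41, adjusted p = 0.0161). *Lpl*, lipoprotein lipase, was lower in the time course (-0.61, adjusted p = 0.00136). *Fabp2*, a fatty acid-binding protein, was higher in the genotype experiment at 12 months (1.21, adjusted p = 0.00114) and at 6 months (0.70, adjusted p = 0.0394). In the time course it was lower at 6 months (-0.79, adjusted p = 0.00326), so the 2 experiments differed in direction at that age. The uptake genes as a group thus had no single direction, with a median log2 fold change of -0.06 in the time course and -0.08 in the genotype experiment.

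Among 13 genes of triglyceride hydrolysis and export, 4 were higher and 1 lower at 12 months in the time course, against 7.67% of all genes called higher and 14.5% called in all. *Tm6sf2*, which acts in lipoprotein secretion (0.72, adjusted p = 0.000176), the carboxylesterase *Ces1d* (0.74, adjusted p = 0.000433) and *G0s2*, an inhibitor of adipose triglyceride lipase (0.70, adjusted p = 0.00235), were higher. *Abhd5*, the activator of the same lipase, was lower (-0.39, adjusted p = 0.0170). In the genotype experiment 1 of these 13 passed, against 11.7% of all genes called. This was *Lipe*, hormone-sensitive lipase, which was lower (-0.49, adjusted p = 0.00794). The other acyltransferases and phosphatases (13 tested) held 1 call in each experiment, against the same 14.5% and 11.7% of all genes. In the time course this was *Plpp2*, a lipid phosphate phosphatase (0.56, adjusted p = 0.00272). In the genotype experiment it was *Gpat4*, an acyltransferase of the same step as *Gpam* (-0.51, adjusted p = 0.0317). Of the glycerol supply genes (5 tested), 0 passed in the time course and 1 in the genotype experiment, against these same shares of all genes. The 1 was *Gpd2*, a glycerol-3-phosphate dehydrogenase, which was higher (0.52, adjusted p = 0.00325).

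Among the *Pparg* partners (12 tested), *Cebpb*, a factor known from adipocyte formation, was lower at 12 months in the time course (-0.39, adjusted p = 0.0482). Over the day 15 of the 65 genes passed, against the 15.8% of all genes. The related receptor *Ppard* had the widest curve of the 6 named, with a fold of 7.65 and a peak at ZT22.5 (adjusted p = 4.17e-06), and *Ces1d* followed with 2.68 at ZT19.0 (adjusted p = 0.000889). *Gpat4* peaked at ZT14.3 (1.65-fold, adjusted p = 0.00126), and the lipase gene *Mgll* at ZT15.4 (1.71-fold, adjusted p = 0.00100). For genotype over the 6 pairs 1 of the 65 passed, a share near the 1.36% of all genes. This was *Slc27a4*, a fatty acid transport protein, at 31.6 to 46.0 CPM in WT and 41.6 to 54.3 in KO (0.32, SE 0.06, adjusted p = 0.0439).

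Finally, the genes most like each member over the 18 time-course libraries were listed by Pearson's r of log2 CPM, as a description over libraries that share ages, hours and scaling. *Lpin1* and *Lpin2* had the same nearest gene, *Mknk2*, a kinase of translation initiation factors (r = 0.906 and 0.940), and *Lpin2* was among the nearest 3 of *Lpin1* (0.871). *Gpam* was near *Fasn*, fatty acid synthase (0.907), and this held at 0.831 over the 12 libraries of the genotype experiment. *Dgat2* was near *Cul4a* (0.898) and *Slc25a13* (0.896), and *Agpat2* near *Ormdl3* (0.900). For *Pparg* the nearest gene, *Jph1* (0.899), was at 0.00973 in the genotype experiment. *Cd36* and *Mogat1* had an r of 0.337 over the 18 time-course libraries and of 0.946 over the 12 of the genotype experiment, and *Mogat1* counts in the time course were 3 to 18.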

How the data were processed

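Liver poly(A) RNA of male mice was read in 30 libraries: 18 of a time course over 3 ages and 6 time points, and 12 of a genotype experiment over 3 ages, 2 times and 2 genotypes. The authors trimmed the reads (fastp), aligned them to the mouse genome (mm10) with HISAT2 and counted them per gene with featureCounts, per the labels and the study's methods, and deposited raw counts, 1 table per experiment. Versions of these tools, the annotation, the use of strand and the number of mice behind each library are not given in the sources used here, and the animals per group that the study's legends state are not tied to libraries.

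Groups were taken from the sample labels. Of 55471 Ensembl identifiers, 55144 matched a symbol. Total counts, 13375377 to 21748956 per library, bound the precision of low genes, and counting intervals (exact Poisson, 95%) cover counting error only. Each table was fitted whole in edgeR 4.0.16 (R 4.3.3) by the quasi-likelihood F-test after TMM scaling and the filterByExpr filter on low counts, with Benjamini-Hochberg adjustment over all genes tested and a threshold of 0.05. Age was tested with ZT as a block, rhythm with a 24-h cosine curve, genotype with the pair of one age and time as a block, and age in the genotype experiment with genotype and H or L as terms but no pair term. No time point or pair was dropped or imputed in these fits. An exact rank permutation test modelled on JTK_cycle over the 720 orders of 6 values used the smallest p, 0.0333, without adjustment. FPKM values were computed from the counts and GENCODE M21 exon lengths. Scripts were tested on simulated data. Alternatives were the size factors of DESeq2 1.42.0, no filter on low counts, DESeq2 itself, no block, all 18 libraries in one fit, ZT as a factor, the pairs at H or L alone, and leaving out each time point or pair. A time point was left out at every age in the fit. WT or KO libraries alone, and the genotype fit without 2 of the pairs, were added after seeing the data. The ZT and pair blocks come from the design, since libraries of a block share the hour, or the age and hour.

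The 10 genes, the 6 pathway lists and the marker lists were chosen with earlier results of these data known. Besides the 10, up to 6 listed genes in each direction of a comparison were named, those with the smallest p past the threshold, and for each member the 3 genes with the highest r among those averaging 1 CPM or more. Promoter windows of 250 bases came from RefSeq (GRCm38.p6), and none were used for *Mogat2*, *Dgat1* and *Dgat2*. The list counts include a gene whose own values are not reported here.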

Additional observations from a re-analysis of the deposited data

Results flagged for a closer look

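In groups of 6 libraries, the highest or lowest value was flagged where its gap to the nearest other library exceeded Dixon's 95% critical value as a share of the whole range. Chance flags about 1 in 20 groups, 50 groups were tested, and 6 were flagged. The groups of an age hold 6 hours of the day, so a peak by hour is flagged in the same way as a library that stands apart.

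*Lpin1* was flagged at ZT13 at all 3 ages, at 484 CPM at 2 months (other libraries 15.8 to 80.5), 77.9 at 6 months (11.6 to 32.9) and 174 at 12 months (13.3 to 66.9). *Cd36* at 2 months was flagged at ZT9, at 61.9 CPM (others 36.9 to 43.9). ZT9 was also its highest hour at 12 months, at 92.6 CPM, and at 6 months it was highest at ZT17. *Mogat1* at 2 months was flagged at ZT1, at 0.763 CPM or 11 counts (others 0.234 to 0.407). *Dgat2* in WT of the genotype experiment was flagged at 2 months H, at 833 CPM (others 548.8 to 624.3), and the KO library of that pair was at 768.8.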

How the results depend on the processing

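Counts are members called at an adjusted p under 0.05, of 9 or 10 tested. No member called for age in the reported fits changed direction in any alternative, but folds of members not called crossed 1 in some. At 12 vs 2 months in the genotype experiment, *Gpam* went from 1.37 to 0.732 without the 12-month H pair. *Lpin1* there went from 0.584 to 1.1 without the 2-month H pair. At 6 months the KO over WT fold of *Gpam* went from 1.64 to 0.781 without the L pair. Without the filter on low counts the calls went from 1 to 5 (6 vs 2 months), 3 to 5 (12 vs 6 months), 1 to 2 (rhythm at 6 months), 1 to 3 (rhythm at 12 months), 0 to 2 (genotype over 6 pairs: *Pparg* and *Mogat1*), 0 to 1 (genotype by age: *Lpin1*), 0 to 1 (genotype by time: *Cd36*) and 0 to 2 (genotype at 6 months: *Mogat1* and *Lpin1*). With DESeq2 they went from 1 to 2 (6 vs 2 months), 1 to 3 (rhythm at 6 months), 1 to 2 (rhythm at 12 months) and 0 to 1 (genotype by time: *Cd36*), and with its size factors from 1 to 2 (rhythm at 6 months). All 18 libraries in one fit gave 2 for 6 vs 2 months and 5 for 12 vs 6 months. With no replicate block (ZT) the 6 vs 2 months call was lost (0), and the pair and ZT blocks changed no other count by over 1.5 times. The permutation test gave 2 members in place of 4 for rhythm at 2 months and 2 in place of 1 at 12 months. In the genotype experiment, WT alone gave 0 (6 vs 2 months) and 1 (12 vs 2 months, *Cd36*), and KO alone 0 and 0.

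Leaving out each time point or pair gave 0 to 3 for 6 vs 2 months, 2 to 4 for 12 vs 2 and for 12 vs 6 months, 4 for rhythm over the 3 ages (of 5), 0 to 4 at 2 months, 0 to 2 at 6 months and 0 to 1 at 12 months, and 0 to 2 and 1 to 4 for 6 and 12 vs 2 months in the genotype experiment. The cause of these shifts was not tested. Calls over all genes ranged over these alternatives from 885 to 2147 (6 vs 2 months, 1604 as reported), 898 to 2582 (12 vs 2, 2033), 628 to 2252 (12 vs 6, 1438), 1020 to 2761 (rhythm over the 3 ages, 2167), 2 to 636 (genotype, 202), 0 to 804 (6 vs 2 in the genotype experiment, 375) and 27 to 2062 (12 vs 2 there, 1679). The age calls of *Pparg* and *Gpam* in the time course at 12 vs 2 months held in every alternative run. Depth limits *Mogat1* in the time course (3 to 18 counts) and *Mogat2* throughout (0 to 18 counts).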

Other observations

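At the same age and hour, the time-course library and the WT library of the genotype experiment, 2 tables scaled separately, were close for some members and not for others. *Pparg* at 2 months and ZT13 was at 9.71 CPM in the time course and 9.93 in WT, and *Cd36* there at 36.9 and 34.0. At 12 months and ZT5 *Pparg* was at 11.8 and 23.2, *Cd36* at 58.3 and 159.1, and *Mogat1* at 0.840 and 5.49. *Lpin1* was at 483.6 and 146.5 CPM at 2 months and ZT13 and at 11.6 and 168.7 at 6 months and ZT21. The clock gene *Dbp* at 12 months and ZT5 was at 22.8 and 2.43 CPM, and *Arntl* at 10.7 and 31.5. Whether the hours given for the genotype experiment hold for each of its libraries was not tested.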
